A study of Homo sapiens with 52 samples.

Results

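The genes that build cholesterol and fatty acids were followed through NRP1 knockdown in 3 breast cancer cell lines. They were taken by name: 30 of the 78894 genes in the gene-level tables, namely 7 genes of the mevalonate pathway, 11 of squalene and sterol synthesis, 8 of fatty acid synthesis and 4 regulators or carriers of sterols. NRP1 (Neuropilin-1) is a transmembrane co-receptor for growth factor receptors. Bulk RNA-seq covered 52 samples: SUM159PT (17 samples), MDA-MB-231 (18) and HS578T (17), which are human lines described as claudin-low, a form of triple-negative breast cancer with few cell adhesion proteins. Each line was treated with a non-targeting (NT) siRNA (siNT) or an NRP1 siRNA (siNRP1#3, siNRP1#5) at 20 nM and harvested after 72 h, or was made to carry a lentiviral NT shRNA (shNT) or NRP1 shRNA (shNRP1#3, shNRP1#5), selected with puromycin, and harvested 48 h after seeding. The siRNA and shRNA arms therefore differed in delivery, selection and time at once. The #5 siRNA and shRNA share 1 sequence, which targets the transmembrane and the soluble form of NRP1, whereas the #3 sequences target the transmembrane form only and differ from each other. Each of the 18 groups held 3 samples, except 2 in SUM159PT siNRP1#5 and 2 in HS578T shNRP1#3, and the shRNA replicates were consecutive passages after selection.

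Total counts ran from 25310443 to 72003442 per sample, with a median of 44804505, and every member was counted in every sample, from an expected count of 6.5 (EBP in an HS578T sample) upwards. NRP1 itself was lower in all 12 knockdowns, and 11 passed the test (the exception was HS578T shNRP1#3, -1.59 ± 0.29, SE, edgeR adjusted p = 0.069). Values given with ± are log2 fold changes with a standard error (SE). The p-values are from edgeR's quasi-likelihood test, adjusted by Benjamini-Hochberg over all genes tested. The SE was derived as the size of the log2 fold change over the square root of the test's F statistic. A gene is called when the adjusted p is under 0.05. Shares of all genes tested are of genes so called, and none was taken at an unadjusted p. The depth of knockdown varied: in MDA-MB-231, NRP1 fell to 3.21, 2.29 and 1.85 CPM (TMM-normalised counts for a common library size) with siNRP1#5 (log2 fold change -4.88) but only to 75.5, 90.1 and 89.1 with shNRP1#5 (-1.05). Of the markers of the claudin-low state, VIM, ZEB1, SNAI1 and ITGA6 were present in every line and ESR1 and PGR stayed at or under 0.384 CPM, while ERBB2 stood at 49.1 to 118 CPM over the 3 lines. CLDN4, which claudin-low cells should lack, stood at 129 to 182 CPM in the MDA-MB-231 NT controls against 0.86 to 6.05 in the other lines. CLDN3, CLDN7 and CDH1, which they should lack too, stood at 4.86 to 9.36, 14.3 to 39.5 and 0.425 to 1.55 CPM in MDA-MB-231. In the SUM159PT and HS578T NT controls these genes stayed at or under 1.05 CPM. HS578T samples also carried reads of genes that the HS578T NT controls hardly hold. By 15 such marker genes, the share of MDA-MB-231 RNA was 8.51 to 15.5% in HS578T siNRP1#5, 1.49 to 4.37% in siNRP1#3 and 0.101 to 1.09% in the NT controls. Replicate 2 of HS578T siNRP1#5 also held 6.14% of SUM159PT RNA, by 13 markers, and MDA-MB-231 shNRP1#3 replicate 3 held 3.3% of HS578T and 2.73% of SUM159PT RNA. All other samples of SUM159PT and MDA-MB-231 held at most 1.03% of another line. For the members in the HS578T siNRP1 groups, values with the MDA-MB-231 reads subtracted are given beside the results.

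Cholesterol is built from acetyl-CoA by way of mevalonate, squalene and lanosterol, and fatty acids from the same acetyl-CoA by way of malonyl-CoA and palmitate, which is then elongated and desaturated. Many genes of both routes are driven by the SREBP transcription factors, made from SREBF1 and SREBF2: when sterols are scarce these precursors are cut and enter the nucleus, and when sterols abound INSIG proteins hold them in the endoplasmic reticulum. Rapidly dividing tumour cells depend on these routes for membranes.

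SREBPs bind sterol regulatory elements together with the factors NF-Y, which recognises CCAAT, and Sp1, which recognises GGGCGG. The 250 bases before the start of 4 members are shown, from RefSeq on GRCh38.p14, in the direction of transcription and with CCAAT, the box GGGCGG and TCACNCCAC, the core of the sterol regulatory element, in capitals wherever either strand holds them. They were chosen because HMGCS1, which makes HMG-CoA, rose in HS578T, INSIG1 is the brake on SREBPs, SCD is the member that fell most in MDA-MB-231 with shNRP1#5, and SREBF2 is the only one of the 26 members searched that holds the sterol element core. HMGCS1 lies at chr5:43313413-43313662 (minus strand), INSIG1 at chr7:155297628-155297877 (plus), SCD at chr10:100346983-100347232 (plus) and SREBF2 at chr22:41832855-41833104 (plus).
HMGCS1: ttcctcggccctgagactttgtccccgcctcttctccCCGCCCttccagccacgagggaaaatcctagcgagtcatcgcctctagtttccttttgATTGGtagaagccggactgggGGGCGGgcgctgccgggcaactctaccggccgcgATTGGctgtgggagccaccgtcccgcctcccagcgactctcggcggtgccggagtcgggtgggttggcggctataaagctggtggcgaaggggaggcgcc
INSIG1: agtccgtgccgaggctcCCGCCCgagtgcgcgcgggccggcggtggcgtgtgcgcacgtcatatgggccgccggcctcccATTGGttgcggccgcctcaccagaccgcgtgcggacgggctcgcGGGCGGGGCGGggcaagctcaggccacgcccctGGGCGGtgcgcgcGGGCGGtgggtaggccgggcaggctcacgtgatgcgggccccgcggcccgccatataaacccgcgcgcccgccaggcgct
SCD: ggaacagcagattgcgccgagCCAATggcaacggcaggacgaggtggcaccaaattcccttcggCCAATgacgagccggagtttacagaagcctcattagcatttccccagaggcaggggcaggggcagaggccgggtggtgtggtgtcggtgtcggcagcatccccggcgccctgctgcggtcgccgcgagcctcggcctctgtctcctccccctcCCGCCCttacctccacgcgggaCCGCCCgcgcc
SREBF2: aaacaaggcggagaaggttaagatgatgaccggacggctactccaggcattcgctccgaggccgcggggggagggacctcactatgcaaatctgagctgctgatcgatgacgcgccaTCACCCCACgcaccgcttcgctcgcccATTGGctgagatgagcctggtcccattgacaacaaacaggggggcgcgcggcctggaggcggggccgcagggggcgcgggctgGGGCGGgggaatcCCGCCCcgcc

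Promoter windows of 300 bases, reaching into the start of the gene, were matched for 26 of the 30 members, all but ACAT2, FASN, FDFT1 and SQLE. CCAAT lay in 21 of them (80.8%, against 39.7% of 27305 genes), the 5 without being CYP51A1, ELOVL6, FADS1, PMVK and SREBF1. GGGCGG lay in 25 (96.2% against 48.3%), all but NSDHL. TCACNCCAC lay in 1 (3.85% against 1.39%), SREBF2. A match is a run of letters and not evidence of binding.

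The base levels of the members in the NT controls differed widely between genes. In TPM, which scale transcripts to gene length and library size, FDPS, which makes farnesyl diphosphate, had the highest median level of the members in SUM159PT (254) and MDA-MB-231 (506), and FDFT1, the squalene synthase, the highest in HS578T (471). The lowest was STARD4, a carrier of sterols between membranes, in SUM159PT (6.23) and MDA-MB-231 (14.9), and EBP, the isomerase that shifts a double bond in the sterol ring, in HS578T. The lowest, median and highest TPM of EBP over the 6 NT samples were 0.300, 0.725 and 1.79 in HS578T, 43.4, 101 and 106 in SUM159PT and 79.8, 110.2 and 156 in MDA-MB-231. Every HS578T NT sample lay far under every sample of the other lines. For FADS2, a desaturase of polyunsaturated fatty acids, the same values were 10.2, 11.3 and 17.6 in HS578T, 9.72, 13.9 and 15.8 in SUM159PT and 266, 425 and 529 in MDA-MB-231. MDA-MB-231 stood apart at the high end, while SUM159PT and HS578T overlapped. For SQLE, the squalene epoxidase, they were 39.1, 73.5 and 108 in HS578T, 16.7, 30.6 and 33.8 in SUM159PT and 18.7, 22.7 and 29.4 in MDA-MB-231.

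**Figure D1:**
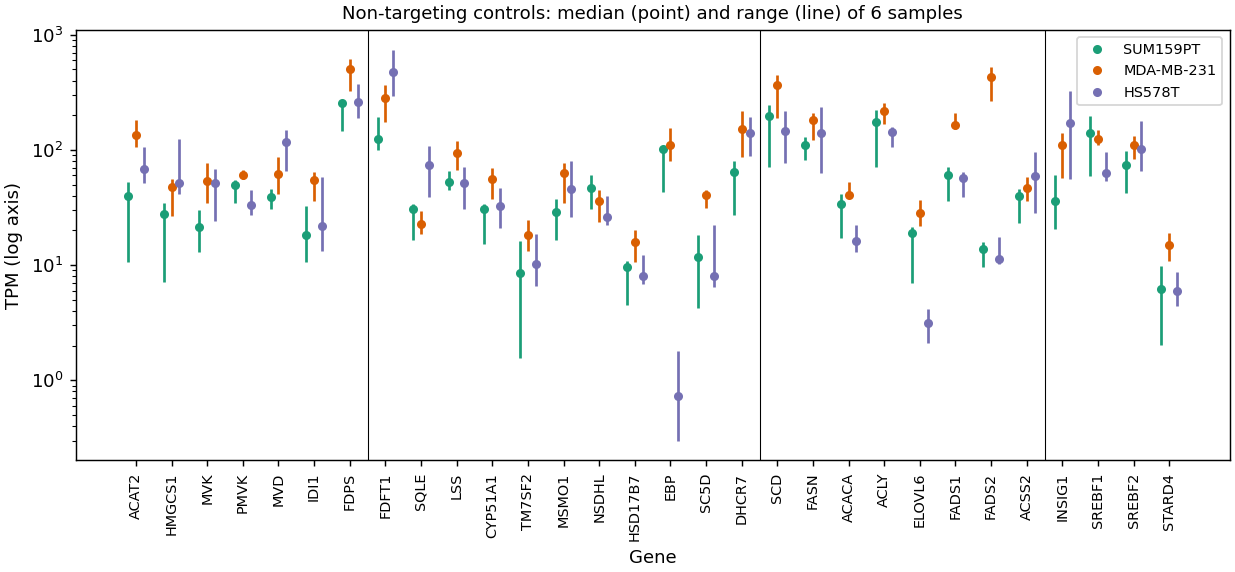
Level of each of the 30 members in the NT controls of the 3 cell lines (TPM, log axis), with the median (point) and range (line) of the 6 samples, siNT and shNT, of each line. EBP is near the bottom in HS578T (median 0.725) and at 101 and 110.2 in SUM159PT and MDA-MB-231, and FADS2 is high in MDA-MB-231 only (median 425).

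Between lines the NT controls (the mean of siNT and shNT) were compared by edgeR's quasi-likelihood test. Against MDA-MB-231, SUM159PT had 1 member higher and 17 lower of 30, where 31.8% of all genes tested were higher and 27.6% lower. The member that was higher was NSDHL (0.72), and the largest falls were FADS2 (-4.74), ACAT2 (-1.66), SC5D (-1.40), FADS1 (-1.27) and TM7SF2 (-1.18), all as log2 fold changes. HS578T against MDA-MB-231 had 11 higher and 7 lower (34.9% and 35.4% of all genes). The sterol genes SQLE (2.27) and FDFT1 (1.46), the mevalonate genes HMGCS1 (1.42) and MVD (1.41) and the brake INSIG1 (1.19) led the rises, and EBP (-6.36), FADS2 (-4.55), ELOVL6 (-3.38), SC5D (-1.36) and FADS1 (-0.96) the falls. Against SUM159PT, HS578T had 18 higher and 3 lower (29.8% and 33.7%), led by INSIG1 (2.28), FDFT1 (2.17), HMGCS1 (1.90), MVD (1.82) and SQLE (1.75), with EBP (-6.27), ELOVL6 (-2.72) and ACACA (-0.31) lower. The 3 comparisons share their control samples, so they are not independent of each other.

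Over the 12 knockdowns against their NT controls, the members were called 38 times in 360 tests, 15 times higher (4.17%, where 5.31% of the tests of all genes were higher) and 23 times lower (6.39%, against 6.01%). The calls were unevenly placed: MDA-MB-231 shNRP1#5 held 14, HS578T siNRP1#5 held 9, and 4 comparisons held none. Altogether 23 members were called at least once, 7 of them in both directions. How many of all genes were called at least once, or in both directions, is not given, so these 2 counts have no background. With the MDA-MB-231 reads subtracted from the HS578T siNRP1 samples, 35 calls were left and 4 members were called in both directions: ACACA, FASN, STARD4 and TM7SF2. FADS2 in HS578T siNRP1#5 then had no value and was counted as not called. The share of all genes after subtraction is not given, so these counts have no background beside them. ELOVL6, the enzyme that elongates palmitate, was called in 4 comparisons, and EBP and ACLY in 3 each. After the subtraction ELOVL6 and ACLY were called in 3 each and EBP in 2. SC5D, MVK, ACAT2, FDFT1, FDPS, PMVK and MVD were called in none.

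**Figure D2:**
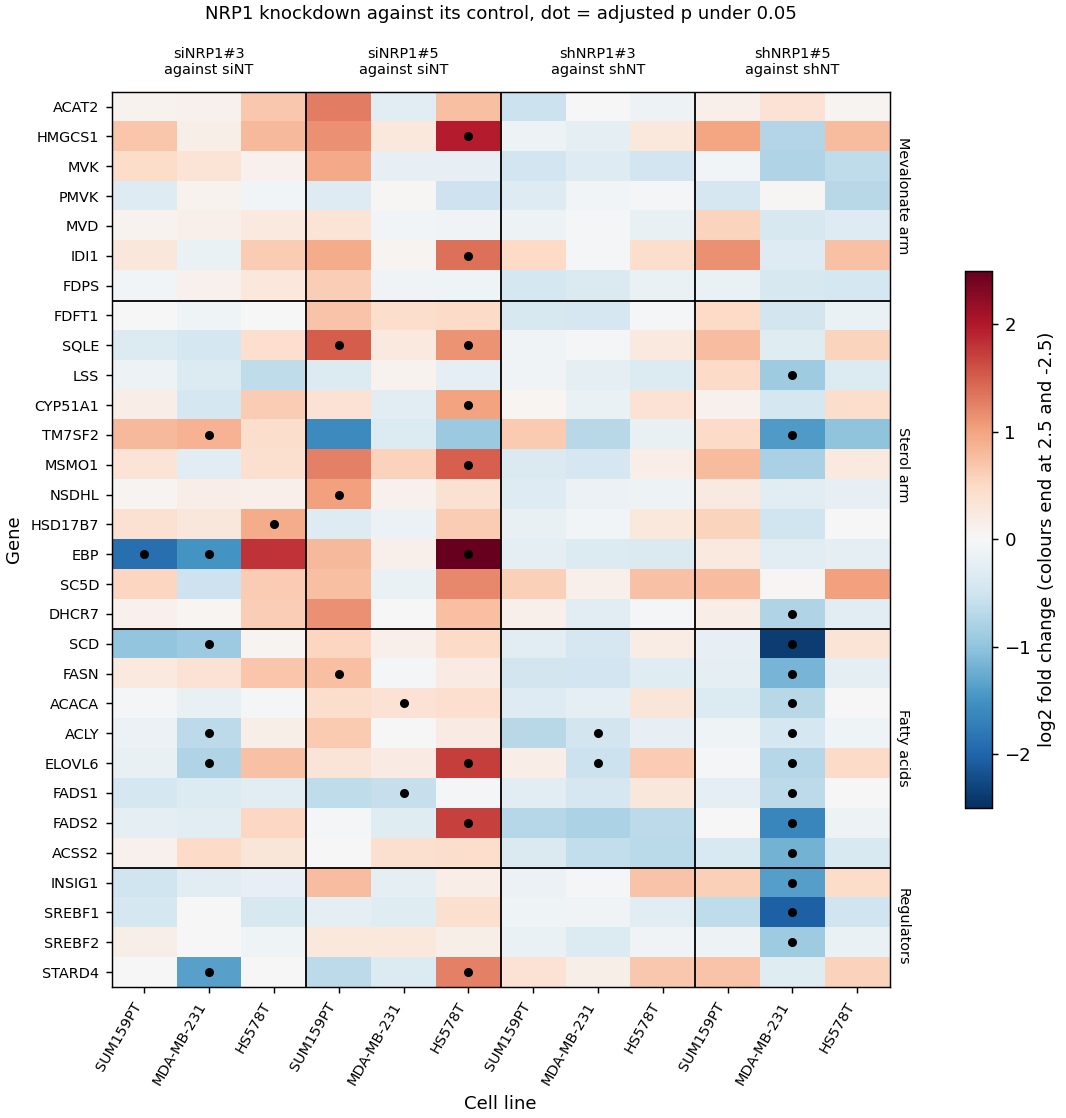
Log2 fold change of each member (vertical, by role) in each of the 12 knockdowns against its NT control (horizontal), with blue lower, red higher and a dot where edgeR's adjusted p was under 0.05. The column of MDA-MB-231 shNRP1#5 holds 14 falls and that of HS578T siNRP1#5 9 rises. After subtraction 6 of these rises were kept, 2 were lost and FADS2 had no value.

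MDA-MB-231 with shNRP1#5 held the most calls of the 12 knockdowns. Of 30 members, 14 were lower and 0 higher, where 11.9% of all genes tested were lower, and the median log2 fold change of the members was -0.67 against 0.02 over all genes. All 8 fatty acid genes fell, with 3 of 4 regulators, 3 of 11 sterol genes and 0 of 7 mevalonate genes. In bulk RNA a fall can reflect fewer cells that express a gene or less RNA in each cell, and these cannot be told apart.

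Both SREBP genes fell. SREBF1 stood at 137, 166 and 160.3 CPM in shNT and at 42.8, 36.9 and 32.7 in shNRP1#5, and the groups were far apart (-2.04 ± 0.21, SE, edgeR adjusted p = 8.06e-06, 4.11-fold lower). SREBF2 stood at 217, 343 and 271 CPM in shNT and 181, 121 and 145 in shNRP1#5, also without overlap (-0.89 ± 0.19, SE, edgeR adjusted p = 0.00361). INSIG1, the brake on both, read 80.2, 151 and 128 CPM in shNT and 62.8, 25.8 and 49.6 in shNRP1#5, with each shNRP1#5 sample lower than each control (-1.37 ± 0.36, SE, edgeR adjusted p = 0.0148). Its call was lost without shNRP1#5 replicate 2 (-1.08) or shNT replicate 2 (-1.17). STARD4, the sterol carrier, gave -0.31 ± 0.25, SE, edgeR adjusted p = 0.408.

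SCD, the desaturase that makes oleate and palmitoleate, showed the largest fall. Its level was 594, 1408 and 1140 CPM in shNT and 258, 147 and 199 in shNRP1#5, so that the highest knockdown sample lay under the lowest control sample (-2.37 ± 0.29, SE, edgeR adjusted p = 6.85e-05, 5.17-fold lower). FADS2 read 398, 788 and 687 CPM in shNT and 239, 169.7 and 190.1 in shNRP1#5, again apart (-1.64 ± 0.25, SE, edgeR adjusted p = 0.000284). FASN, the synthase that assembles palmitate, read 473, 784 and 661 CPM in shNT and 289.5, 304 and 259 in shNRP1#5, and its groups did not overlap either (-1.16 ± 0.17, SE, edgeR adjusted p = 0.000161). The controls of all 3 genes varied, with shNT replicate 1 the lowest each time. ELOVL6 was tighter, at 82.2, 88.8 and 93.5 CPM in shNT and 50.9, 51.9 and 56.8 in shNRP1#5 (-0.72 ± 0.13, SE, edgeR adjusted p = 0.000711). ACLY, which makes acetyl-CoA from citrate, changed least of the 8, from 469, 594 and 577 CPM in shNT to 398, 395 and 402 in shNRP1#5 (-0.45 ± 0.12, SE, edgeR adjusted p = 0.0145). The remaining fatty acid genes were ACSS2, which makes acetyl-CoA from acetate (-1.18), ACACA, the acetyl-CoA carboxylase (-0.69), and FADS1 (-0.66). The call of ACLY was lost without shNRP1#5 replicate 2 (-0.44), shNT replicate 2 (-0.39) or shNT replicate 3 (-0.41).

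Among the sterol genes the fall was narrower. TM7SF2, a sterol reductase, went from 9.77, 14.2 and 12.7 CPM in shNT to 6.31, 3.33 and 3.93 in shNRP1#5, with no overlap (-1.42 ± 0.25, SE, edgeR adjusted p = 0.000764). LSS, the lanosterol synthase (-0.89), and DHCR7, which makes cholesterol from its last precursor (-0.76), also passed, though the samples of DHCR7 overlapped. LSS lost its call without shNRP1#5 replicate 2 (-0.77), shNRP1#5 replicate 3 (-0.88) or shNT replicate 2 (-0.69), and DHCR7 without shNRP1#5 replicate 2 (-0.67), shNRP1#5 replicate 3 (-0.70), shNT replicate 2 (-0.50) or shNT replicate 3 (-0.79). HMGCS1, which condenses acetyl units ahead of mevalonate, read 32.5, 72.3 and 56.9 CPM in shNT and 38.0, 23.6 and 35.2 in shNRP1#5, with groups that overlapped (-0.73 ± 0.33, SE, edgeR adjusted p = 0.128). SQLE read 31.4, 47.4 and 35.6 CPM in shNT and 37.0, 23.7 and 31.5 in shNRP1#5 (-0.30 ± 0.21, SE, edgeR adjusted p = 0.333). Of the mevalonate genes as a whole, 5 of 7 lay lower and 2 higher, and the range of their log2 fold changes was -0.74 to 0.36.

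**Figure D3:**
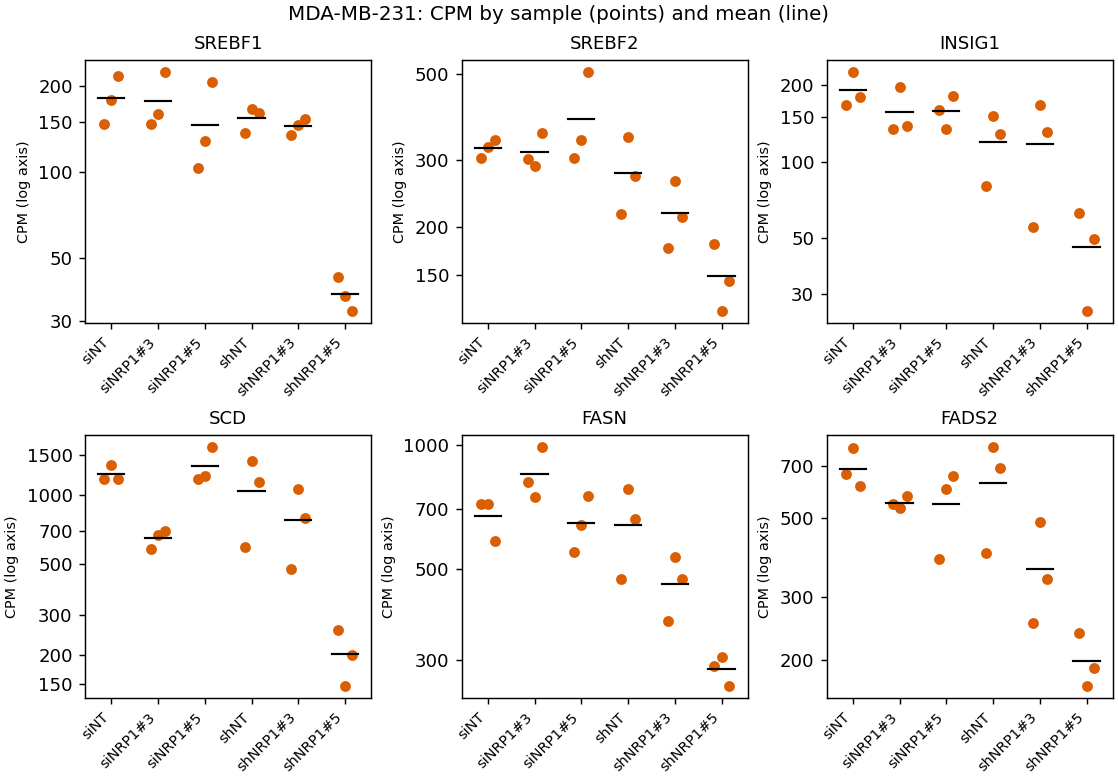
CPM per sample (log axes) of SREBF1, SREBF2, INSIG1, SCD, FASN and FADS2 in the 6 MDA-MB-231 groups, where points are single samples and short lines the group means. For SCD the 3 shNRP1#5 samples (147 to 258) lie under all other samples, and SREBF1 shows the same (32.7 to 42.8).

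Other genes of sterol and lipid handling, counted as lists that the 30 members do not include, also moved in MDA-MB-231 shNRP1#5. Of 7 genes of sterol export and its sensing, 5 fell and 0 rose, against the same 11.9% of all genes. ABCA1, which exports cholesterol, read 22.1, 12.5 and 19.7 CPM in shNT and 1.95, 2.89 and 2.11 in shNRP1#5 (-2.97 ± 0.29, SE, edgeR adjusted p = 5.26e-06), and its groups were far apart. The others were ABCG1, a further exporter (-3.55), MYLIP, which marks lipoprotein receptors for breakdown (-1.06), NR1H3, an oxysterol receptor (-1.0), and CYP27A1, a sterol hydroxylase (-0.95). Of 12 further sterol genes 1 rose (SOAT1, which esterifies cholesterol, 0.58) and 3 fell (INSIG2 -0.97, NPC1 -0.64 and NPC2 -0.57). Of 13 further fatty acid and lipid genes 5 fell (ACACB, SLC25A1, ACSL3, LPIN1 and SCD5, from -0.84 to -0.52) and 0 rose. Genes for synthesis and genes for export were thus lower in the same samples, and the lists were drawn up with earlier results of these data known.

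The fall was also tested against other reagents in this line. Against shNRP1#3, shNRP1#5 had 6 members lower and 0 higher (8.24% of all genes lower): SREBF1 (-1.94), SCD (-1.94), INSIG1 (-1.34), FADS2 (-0.84), FASN (-0.69) and ACACA (-0.45). Without shNRP1#3 replicate 2 or shNRP1#5 replicate 3 the count was 3. The siRNA of the same #5 sequence was set against the shRNA. The effect of siNRP1#5 minus that of shNRP1#5 was positive and passed for 11 members and negative for 0. Of all genes 23.7% passed in either direction, and their share by direction is not given. SCD differed most (2.5 ± 0.40, SE, edgeR adjusted p = 0.000312), with 1174, 1353 and 1179 CPM in siNT and 1180, 1209 and 1624 in siNRP1#5, which overlapped. SREBF1 (1.74), ACSS2 (1.59), MSMO1 (1.40), FADS2 (1.33), SREBF2 (1.16), FASN (1.12), TM7SF2 (1.09), ACACA (1.05), LSS (0.99) and ELOVL6 (0.92) followed. NRP1 itself fell further with that siRNA than with the shRNA, as given at the start. Between the controls, shNT against siNT, 1 member differed, DHCR7 (-0.75, where 9.85% of all genes were lower). That count was 0 without shNT replicate 1, shNT replicate 3 or siNT replicate 2, 2 without shNT replicate 2 and 3 without siNT replicate 3.

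siNRP1#3 in MDA-MB-231 moved 6 members, 5 lower and 1 higher, against 14.3% lower and 11.4% higher of all genes. EBP read 70.9, 104 and 68.1 CPM in siNT and 29.1, 29.5 and 26.0 in siNRP1#3 (-1.5 ± 0.21, SE, edgeR adjusted p = 6.18e-05). STARD4 gave 37.4, 28.5 and 24.5 CPM in siNT and 11.2, 14.8 and 8.87 in siNRP1#3 (-1.35 ± 0.25, SE, edgeR adjusted p = 0.000757). STARD4 carries sterols between membranes. For all 6 genes, which the test had picked, the groups did not overlap. Nor did they for some members not called, such as SQLE, LSS and FADS1, and the share of all genes without overlap is not given. ELOVL6 went from 81.2, 81.9 and 73.4 CPM in siNT to 44.3, 51.7 and 41.9 in siNRP1#3 (-0.76 ± 0.13, SE, edgeR adjusted p = 0.000268). ACLY went from 534, 592 and 450.5 CPM in siNT to 319.7, 318 and 349.5 in siNRP1#3 (-0.65 ± 0.12, SE, edgeR adjusted p = 0.00072). SCD read 583, 673 and 696 CPM here (-0.90 ± 0.28, SE, edgeR adjusted p = 0.027), and its call held in 1 of the 6 fits that left out a single sample: it was lost without siNRP1#3 replicate 1 (-0.84), siNRP1#3 replicate 2 (-0.93), siNRP1#3 replicate 3 (-0.96), siNT replicate 1 (-0.93) or siNT replicate 2 (-0.85). TM7SF2 rose, from 13.0, 14.6 and 18.7 CPM in siNT to 29.1, 25.9 and 28.1 in siNRP1#3 (0.87 ± 0.24, SE, edgeR adjusted p = 0.0138), a call lost without siNRP1#3 replicate 1 (0.82), siNT replicate 1 (0.77) or siNT replicate 2 (0.81). ELOVL6, ACLY and SCD were thus lower with siNRP1#3 and with shNRP1#5, whereas TM7SF2 was higher with the one and lower with the other.

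siNRP1#5, the reagent with the deepest loss of NRP1 in this line, moved 2 members, where 14.4% of all genes rose and 14.9% fell. FADS1 was lower (-0.57 ± 0.14, SE, edgeR adjusted p = 0.00379) and ACACA higher (0.36 ± 0.11, SE, edgeR adjusted p = 0.0143), the latter not without siNT replicate 3 (0.27), which left 1 called. Without siNRP1#5 replicate 1 there were 4. The median over the 30 members was 0.01. Against siNRP1#3, siNRP1#5 had 8 members higher and 1 lower (20.0% and 18.9% of all genes). Higher were EBP (1.63), SCD (1.03), STARD4 (1.01), ELOVL6 (0.96), MSMO1 (0.85), SQLE (0.68), ACLY (0.66) and ACACA (0.56), and TM7SF2 was lower (-1.2).

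shNRP1#3 moved 2 members, both lower, where 2.19% of all genes fell. Of the 30 members 27 lay lower, with a median of -0.25 against 0.02 over all genes. All 8 fatty acid genes lay lower, 7 of them at an unadjusted p under 0.05 by edgeR. The shares of all genes that lay lower, or were at an unadjusted p under 0.05, are not given. ELOVL6 read 53.2, 64.9 and 63.4 CPM (-0.54 ± 0.13, SE, edgeR adjusted p = 0.0198) and ACLY 348, 438 and 409 (-0.46 ± 0.12, SE, edgeR adjusted p = 0.0444), each under all 3 shNT samples. Without shNRP1#3 replicate 3, which carried 3.3% of HS578T and 2.73% of SUM159PT RNA by the marker genes, neither passed (-0.57 and -0.47). Both were also lost without shNRP1#3 replicate 1 (-0.48 and -0.39), shNT replicate 2 (-0.54 and -0.39) or shNT replicate 3 (-0.50 and -0.42). ACLY was lost without shNRP1#3 replicate 2 too (-0.52), and without shNT replicate 1 the count of members called was 5.

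EBP fell with siNRP1#3 in SUM159PT as well. It stood at 39.6, 39.8 and 81.3 CPM in siNT and at 16.0, 9.46 and 18.2 in siNRP1#3, without overlap (-1.88 ± 0.40, SE, edgeR adjusted p = 0.00841, 3.67-fold lower). It was the only member called in that comparison, in which 5.50% of all genes were lower. With siNRP1#5 the SUM159PT samples stood at 37.2 and 150.5 CPM, and EBP was higher with siNRP1#5 than with siNRP1#3 (2.69 ± 0.43, SE, edgeR adjusted p = 0.000425). In HS578T siNRP1#3, where the base level of EBP is near 0, it read 1.75, 2.56 and 5.38 CPM against 0.326, 0.671 and 1.75 in siNT (1.80 ± 0.65, SE, edgeR adjusted p = 0.128). With the MDA-MB-231 reads subtracted from siNRP1#3, the direction turned (-1.23 ± 0.70, SE, edgeR adjusted p = 0.349). The siNT samples, with 0.532 to 1.09% of MDA-MB-231 RNA by the markers, were not corrected. The turn can therefore not be read as an effect of siNRP1#3. The effect of siNRP1#3 on EBP was unequal over the 3 lines by an F test (edgeR adjusted p = 0.00144). It was not once the MDA-MB-231 reads had been subtracted from the HS578T siNRP1 samples (0 members then passed). EBP did not pass with either shRNA in any line. In shNRP1#3 it read 31.6, 55.8 and 42.9 CPM in MDA-MB-231 (-0.35 ± 0.21, SE, edgeR adjusted p = 0.439) and 65.5, 64.6 and 59.3 in SUM159PT (-0.23 ± 0.38, SE, edgeR adjusted p = 0.862).

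**Figure D4:**
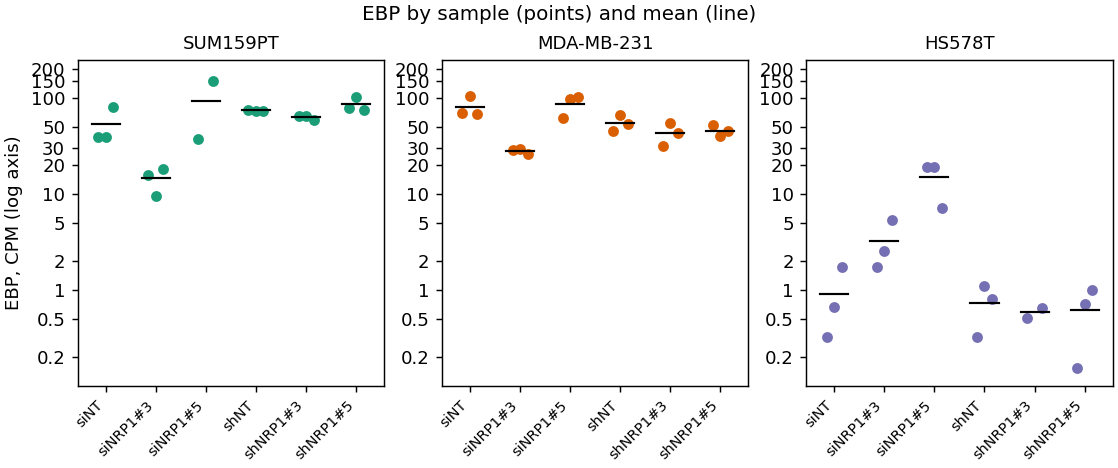
EBP in CPM (log axis) in all 52 samples by cell line and treatment, where points are single samples and short lines group means. With siNRP1#3 EBP is under all siNT samples in MDA-MB-231 (26.0 to 29.5) and SUM159PT (9.46 to 18.2), and HS578T siNRP1#5 stands above the other HS578T groups (7.16 to 19.3). That group held 8.51 to 15.5% of MDA-MB-231 RNA by the markers. With these reads subtracted EBP did not pass there (1.21 ± 1.01, SE, edgeR adjusted p = 0.445).

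In HS578T with siNRP1#5, 9 members were higher and 0 lower, where 10.1% of all genes were higher. The median over the 30 was 0.46, against 0.03 over all genes. By role, 4 of 11 sterol genes, 2 of 7 mevalonate genes, 2 of 8 fatty acid genes and 1 of 4 regulators rose. This group also held the MDA-MB-231 reads described at the start, and the 2 sets of values follow side by side. HMGCS1 read 308, 267 and 151 CPM in siNT and 574, 756 and 1515 in siNRP1#5, with every knockdown sample above every control (1.97 ± 0.48, SE, edgeR adjusted p = 0.0104). SQLE read 264, 310.5 and 282 CPM in siNT and 636, 509.7 and 724 in siNRP1#5, likewise apart (1.13 ± 0.26, SE, edgeR adjusted p = 0.00675). MSMO1, which removes methyl groups from the sterol ring, read 155, 174 and 129 CPM in siNT and 322, 365 and 604 in siNRP1#5 (1.49 ± 0.34, SE, edgeR adjusted p = 0.00645). IDI1, the isomerase of isopentenyl diphosphate (1.38), STARD4 (1.26) and CYP51A1, the lanosterol demethylase (1.01), rose too. HMGCS1 lost its call without siNRP1#5 replicate 3 (1.46) or siNT replicate 3 (1.72), and IDI1 without siNRP1#5 replicate 3 (1.04) or siNT replicate 3 (1.09). CYP51A1 and STARD4 lost theirs without siNT replicate 3 (0.90 and 1.11).

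The foreign reads bore on the members unequally. EBP stood at 14.9, 17.1 and 5.21 CPM of the deposited total in the 3 HS578T siNRP1#5 samples, where the marker share of MDA-MB-231 RNA alone would bring 13.9, 13.8 and 7.63. For FADS2 the measured 117, 75.0 and 58.3 stood beside 118, 117 and 64.7, and for ELOVL6 21.4, 24.0 and 16.0 beside 13.6, 13.5 and 7.45. These 3 genes are high in MDA-MB-231 and low in HS578T, and for EBP and FADS2 the amount brought in was close to or above the measured level. For HMGCS1 the measured 445, 681 and 1103 stood beside only 11.5, 11.4 and 6.33. With the MDA-MB-231 share subtracted from the counts, an alternative chosen after seeing the data, 6 of the 9 kept their calls: HMGCS1 (2.26 ± 0.48, SE, edgeR adjusted p = 0.0063), MSMO1 (1.76), IDI1 (1.63), SQLE (1.45), STARD4 (1.34) and CYP51A1 (1.22). EBP went to 1.21 ± 1.01, SE, edgeR adjusted p = 0.445, ELOVL6 to 0.89 ± 0.31, SE, edgeR adjusted p = 0.0662, and FADS2 has no value because every siNRP1#5 sample was then at 0. For FADS2 more was taken off than was measured in each sample, though the HS578T NT controls held 19.0 to 42.3 CPM. The same held for EBP in replicate 3. The share thus overshot there, and the call of FADS2 was not tested after subtraction. The SUM159PT reads of replicate 2 were not subtracted.

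**Figure D5:**
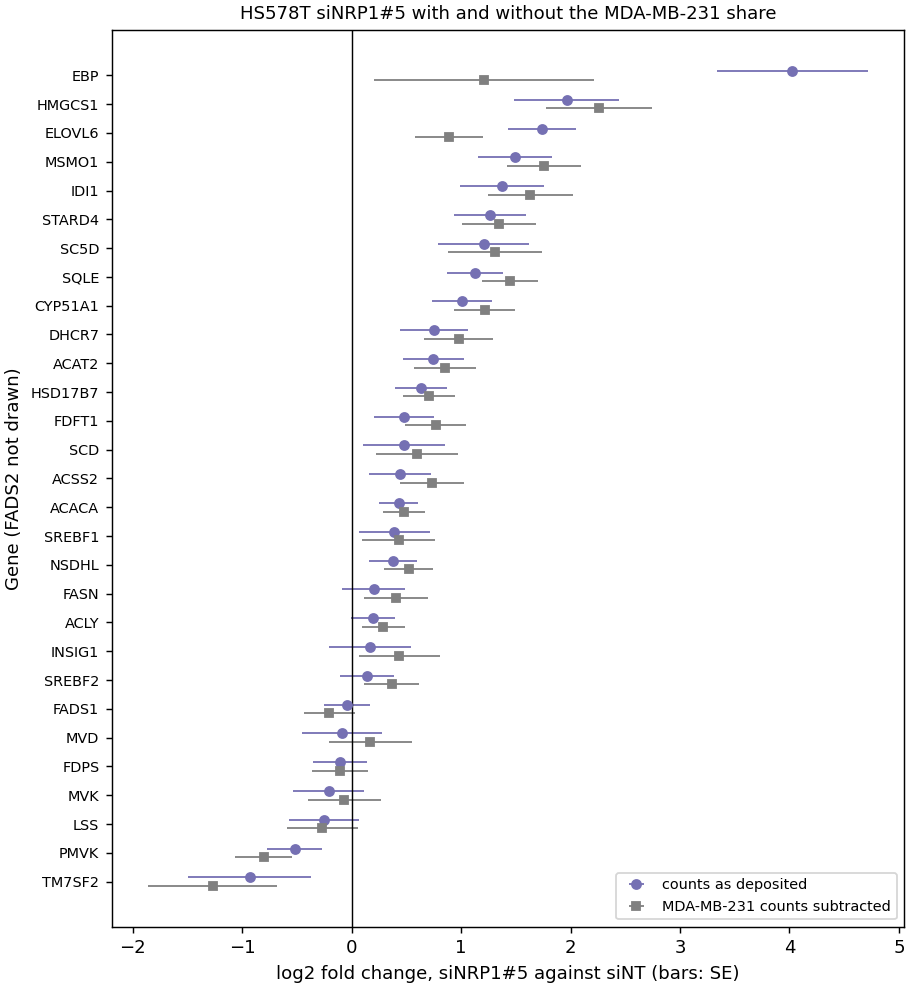
Log2 fold change of each member but FADS2 in HS578T siNRP1#5 against siNT, as deposited and with the MDA-MB-231 share subtracted, with bars of 1 SE. HMGCS1 goes from 1.97 to 2.26 and EBP from 4.03 to 1.21.

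Among the other sterol and lipid genes in HS578T siNRP1#5, 2 of 12 further sterol genes rose, LBR, a sterol reductase of the nuclear envelope (1.38 ± 0.26, SE, edgeR adjusted p = 0.00198), and MBTPS2, a protease that cuts SREBPs (0.81), and 0 fell. ACSL3 (1.19) and HSD17B12 (0.94) rose among 13 lipid genes, and CYP27A1 (2.44) and ABCA1 (0.89) among the 6 export genes tested. The part of the foreign reads in these other genes was not tested. SREBF1 (95.3, 135 and 155 CPM in siNT, 198, 165 and 144 in siNRP1#5) and SREBF2 (595, 616 and 868 CPM in siNT and 832, 608 and 852 in siNRP1#5) did not pass (0.39 and 0.14), nor did FASN, SCD or INSIG1 (0.20, 0.48 and 0.17).

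The remaining HS578T knockdowns moved few members. siNRP1#3 had 1 higher, HSD17B7, a sterol ketone reductase, where 2.31% of all genes were higher. It read 10.3, 10.8 and 11.3 CPM in siNT and 16.0, 24.3 and 21.5 in siNRP1#3 (0.93 ± 0.24, SE, edgeR adjusted p = 0.0327), but it passed only in the fit without siNRP1#3 replicate 1 of the 6 that left out a single sample, and was lost without siNRP1#3 replicate 2 (0.81), siNRP1#3 replicate 3 (0.90), siNT replicate 1 (0.90), siNT replicate 2 (0.93) or siNT replicate 3 (0.96). With the foreign reads subtracted it was 0.96 ± 0.24, SE, edgeR adjusted p = 0.028. Against siNRP1#3, siNRP1#5 had 5 members higher (9.21% of all genes): EBP (2.22), STARD4 (1.27), FADS2 (1.2), MSMO1 (1.09) and ELOVL6 (1.0). That count was 0 without siNRP1#3 replicate 1, 3 without siNRP1#3 replicate 3 and 2 without siNRP1#5 replicate 1 or 2. With the MDA-MB-231 reads subtracted from siNRP1#5 alone, the count was 4, namely HMGCS1, SQLE, MSMO1 and STARD4. There siNRP1#3 was left as deposited, and the share of all genes after subtraction is not given. shNRP1#3 and shNRP1#5 had 0 members called by edgeR, where 0.0356% and 0.946% of all genes were called. At an unadjusted p under 0.05 there were 1 and 3 members, and the share of all genes at that threshold is not given. HMGCS1 illustrates the spread, at 112, 115 and 93.7 CPM in shNT and 237, 257 and 62.8 in shNRP1#5 (0.79 ± 0.47, SE, edgeR adjusted p = 0.356). shNRP1#5 against shNRP1#3 gave 0 as well, where 0.544% of all genes were called, with 1 member at an unadjusted p under 0.05. DESeq2 also called 0 in these 3 comparisons.

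The HS578T controls themselves differed between the arms. shNT had 10 members lower than siNT and 0 higher, where 8.80% of all genes were lower, with a median of -0.48. INSIG1 fell most, from 655, 752 and 895 CPM in siNT to 145, 164 and 158 in shNT (-2.28 ± 0.39, SE, edgeR adjusted p = 0.00161), and the 2 groups were far apart. IDI1 (-1.43), MSMO1 (-1.34), ACSS2 (-1.32), SQLE (-1.21), SCD (-1.13), FDFT1 (-1.10), SREBF2 (-1.07), FASN (-0.94) and FADS1 (-0.72) were also lower. SQLE read 264, 310.5 and 282 CPM in siNT and 112, 130.3 and 122 in shNT, and FASN 1008, 1318 and 1560 CPM in siNT and 423, 845 and 714 in shNT. The count was 3 without shNT replicate 3 and 4 without siNT replicate 2. Delivery, selection and harvest time all separate these groups and cannot be told apart. The effect of siNRP1#5 minus that of shNRP1#5 passed for EBP alone (4.26 ± 0.94, SE, edgeR adjusted p = 0.0432, where 0.854% of all genes passed), and for no member once the MDA-MB-231 reads were subtracted. Of the 12 fits that left out a single sample of these groups it passed for no member in 9 (all but those without shNT replicate 1, siNRP1#5 replicate 3 or siNT replicate 3, the last with 2 called).

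In SUM159PT, siNRP1#5 had 3 members higher and 0 lower, where 9.00% of all genes were higher. SQLE read 34.5, 37.8 and 68.3 CPM in siNT and 54.3 and 212 in the 2 siNRP1#5 samples, which overlapped the controls (1.51 ± 0.45, SE, edgeR adjusted p = 0.0296). FASN read 432, 384 and 580.1 CPM in siNT and 663 and 905 in siNRP1#5, without overlap (0.76 ± 0.25, SE, edgeR adjusted p = 0.0427), and NSDHL, a decarboxylase of sterol synthesis, 39.6, 52.1 and 59.2 CPM in siNT and 68.0 and 137 in siNRP1#5 (1.03 ± 0.28, SE, edgeR adjusted p = 0.0183). The 2 siNRP1#5 samples were replicates 2 and 3, and the second value was the higher for all 3 genes. For INSIG1 they read 32.7 and 214 CPM and for HMGCS1 47.6 and 121. Without replicate 2 the count of members called was 12 and without replicate 3 it was 2, with the lone siNRP1#5 sample assumed to vary like the other groups. Those 2 were both lower, LSS (-1.62) and TM7SF2 (-2.40). Without siNT replicate 1 it was 0, and without siNT replicate 2 it was 1. FASN and SQLE were also lost without siNT replicate 2 (0.62 and 1.34).

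TM7SF2 differed between the SUM159PT reagents. It read 16.1, 12.3 and 12.2 CPM in siNT, 26.5, 23.1 and 21.3 in siNRP1#3 and 2.51 and 6.42 in siNRP1#5. siNRP1#5 against siNRP1#3 had 3 members higher and 1 lower (16.0% and 13.7% of all genes): EBP as given, SQLE (1.85), NSDHL (0.96) and, lower, TM7SF2 (-2.39 ± 0.57, SE, edgeR adjusted p = 0.00566). Without siNRP1#5 replicate 2 the count was 11. In the controls TM7SF2 read 2.76, 4.17 and 1.32 CPM in shNT, and was lower there than in siNT (-2.32 ± 0.49, SE, edgeR adjusted p = 0.00893), while ACLY was higher (0.89; 5.96% of all genes were higher and 8.45% lower). ACLY read 298, 268 and 449 CPM in siNT and 638, 595 and 684 in shNT, without overlap. This count of 2 fell to 0 without shNT replicate 3 and was 4 without siNT replicate 3, and it was 1 without any other single sample of these groups.

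With the SUM159PT shRNAs no member passed by edgeR. By edgeR 1.40% and 5.94% of all genes were called with shNRP1#3 and shNRP1#5. At an unadjusted p under 0.05 there were 2 and 3 members, and the share of all genes at that threshold is not given. DESeq2 called 1 member in each. Without shNRP1#5 replicate 3, edgeR called 1 for shNRP1#5. In shNRP1#3, 23 of 30 members lay lower, with a median of -0.21. ACLY read 420.5, 349 and 406 CPM, under all 3 shNT samples (-0.70 ± 0.28, SE, edgeR adjusted p = 0.29). shNRP1#5 against shNRP1#3 had 0 called by edgeR, where 8.71% of all genes were called, and 8 at an unadjusted p under 0.05. DESeq2 called 2 members there. The siNRP1#5 effect minus the shNRP1#5 effect had 5 members at an unadjusted p under 0.05 and 1 called by DESeq2. By edgeR the count of members called was 0, where 2.51% of all genes were called. It was 2 without shNRP1#5 replicate 3 and 1 without siNRP1#5 replicate 3.

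Whether a reagent acted equally in the 3 lines was tested for each member by an F test over the 52 samples. For shNRP1#5 the effects were unequal for 2 members, where 3.81% of all genes passed. SCD was -2.37 in MDA-MB-231, -0.21 in SUM159PT and 0.34 in HS578T (edgeR adjusted p = 0.0159). FADS2 was -1.64, 0.01 and -0.12 in the same order (edgeR adjusted p = 0.00904). SREBF1, -2.04, -0.63 and -0.49, did not pass this test (edgeR adjusted p = 0.141), so its fall in MDA-MB-231 is not shown to differ from the other lines. Without the samples numbered 1 the count was 1, and without those numbered 2 it was 0. For siNRP1#5, 5 members were unequal (18.2% of all genes): CYP51A1, EBP, ELOVL6, FADS2 and STARD4. Without the samples numbered 1 there were 3. With the MDA-MB-231 reads subtracted 2 of the 5 passed, CYP51A1 and STARD4, and FADS2 had no value. As deposited, CYP51A1 was -0.28, 0.36 and 1.01 and STARD4 -0.35, -0.65 and 1.26, in the same order. For siNRP1#3, EBP and ELOVL6 were unequal (3.42% of all genes) and 0 were after subtraction or without the samples numbered 1 or 2, and 1 without those numbered 3. For shNRP1#3 edgeR called 0, where 0.747% of all genes were called, and 3 members were at an unadjusted p under 0.05. DESeq2's likelihood ratio test also called 0.

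The 7 members called in no knockdown were 5 of the 7 mevalonate genes (ACAT2, MVK, PMVK, MVD and FDPS), FDFT1 and SC5D. The share of all genes called in no knockdown is not given. Their counts were not low: the lowest count of any of them in any sample was 314 reads (SC5D) and the highest 63546 (FDFT1). The largest summed absolute log2 fold change among them over the 12 comparisons was that of SC5D, 7.08, against 6.52 for ELOVL6, which was called 4 times. SC5D gave 1.21 ± 0.41, SE, edgeR adjusted p = 0.0516 in HS578T siNRP1#5.

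Within each line the median correlation between members was positive, but correlations among other genes were not computed for comparison. The median Pearson correlation of log2 CPM over the 435 pairs of members was 0.366 in SUM159PT (17 samples), 0.565 in MDA-MB-231 (18) and 0.427 in HS578T (17). In MDA-MB-231 it was 0.711 between pairs of sterol genes and 0.397 between pairs of mevalonate genes, and in SUM159PT 0.476 and 0.552. These samples share knockdown groups, depth and, in the shRNA arm, passages, so the values are descriptions only.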

How the data were processed

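Per the paper's methods, polyA RNA was sequenced as strand-specific libraries. The authors trimmed reads with Trim Galore 0.6.5, checked them with FastQC 0.11.9, aligned them to GRCh38 with STAR 2.7.2b and quantified genes with RSEM 1.3.3, and deposited expected counts and TPM per gene and sample. They removed 2 outlying samples, which are not analysed here. The expected counts, as deposited, were rounded to whole numbers and fitted for each cell line with edgeR 4.0.16 in R 4.3.3 (filterByExpr, TMM, 6 group means, robust quasi-likelihood test), with Benjamini-Hochberg adjustment over all genes tested and a threshold of 0.05. Cell lines were compared in 1 model over the 52 samples and 18 groups. CPM were TMM-normalised over all samples. The deposited TPM were used for levels between genes only. The fits were tested on simulated counts.

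Samples were grouped by their labels. Replicates are the labels' separate samples, and p-values measure the spread between these only. All 30 members are accounted for. In each comparison the members past the threshold were named where they numbered up to 10, otherwise the 5 with the largest change in each direction, and per-sample values were given for HMGCS1, SQLE, SCD, FASN, INSIG1, SREBF1 and SREBF2 and for the 6 members called most often. Other members shown in full were chosen after their values were seen. The members and lists were chosen with earlier results of these data known. The share of another line's RNA was taken from genes at most 0.5 CPM in every NT control of the one line and at least 20 CPM in every NT control of the other. For the subtraction, chosen after seeing the data, the MDA-MB-231 siNT counts times that share were taken from the HS578T siNRP1 counts. In the fits of HS578T alone 1 siNRP1 group was corrected at a time, and in the F tests both were. The HS578T siNT and shRNA samples were not corrected. Same-numbered samples deviated together (every correlation over 0.1) in 5 of 10 knockdown comparisons with 3 pairs: HS578T shNRP1#5, MDA-MB-231 siNRP1#5 and shNRP1#3, and SUM159PT siNRP1#3 and shNRP1#3. Alternatives were other size factors, no filter on low counts, DESeq2 1.42.0, a replicate block and leaving out samples.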

Additional observations from a re-analysis of the deposited data

Results flagged for a closer look

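The effects of the siRNA and the shRNA of the #5 sequence differed by edgeR's interaction test for 11 of 30 members in MDA-MB-231, where 23.7% of all genes passed. The siRNA effect minus the shRNA effect, on the log2 scale, was 2.5 for SCD, 1.74 for SREBF1, 1.59 for ACSS2, 1.4 for MSMO1, 1.33 for FADS2, 1.16 for SREBF2, 1.12 for FASN, 1.09 for TM7SF2, 1.05 for ACACA, 0.989 for LSS and 0.921 for ELOVL6. In HS578T it was 4.26 for EBP, the 1 member called where 0.854% of all genes passed, and no member passed there once the MDA-MB-231 reads had been subtracted. Delivery, selection and harvest time separate the 2 arms in every line and cannot be told apart.

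The effects of 1 reagent differed between the 3 cell lines by edgeR's F test for these members. With siNRP1#3, 2 of 30 members and 3.42% of all genes passed, and the edgeR adjusted p was 0.00144 for EBP and 0.0144 for ELOVL6, and neither passed after subtraction. With siNRP1#5, 5 members and 18.2% of all genes passed, and the edgeR adjusted p was 0.00011 for EBP, 0.000268 for FADS2, 0.000992 for ELOVL6, 0.013 for STARD4 and 0.044 for CYP51A1. After subtraction STARD4 and CYP51A1 passed, and FADS2 had no value. With shNRP1#5, 2 members and 3.81% of all genes passed, and the edgeR adjusted p was 0.00904 for FADS2 and 0.0159 for SCD.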

How the results depend on the processing

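Of the 38 calls of single members in the knockdowns, 21 held in every fit that left out 1 sample and 17 were lost in at least 1. None changed direction. All 38 held with RLE size factors, with DESeq2 and with the replicate block, and without a filter on low counts 35 held, the others being HSD17B7 in HS578T siNRP1#3 (0.92), ACACA in MDA-MB-231 siNRP1#5 (0.34) and FASN in SUM159PT siNRP1#5 (0.76). RLE size factors moved no count of members called by over 1.5 times. With the replicate block the count was 2 for the HS578T siRNA-shRNA difference, 2 for MDA-MB-231 shNT against siNT, 1 for SUM159PT shNRP1#5 against shNRP1#3 and 4 for SUM159PT shNT against siNT. It changed no other count by over 1.5 times. DESeq2 gave 2 for HS578T siNRP1#3 and for the HS578T siRNA-shRNA difference, 4 for MDA-MB-231 shNRP1#3 and for MDA-MB-231 shNT against siNT, 5 for SUM159PT siNRP1#5, 1 each for SUM159PT shNRP1#3, shNRP1#5 and the siRNA-shRNA difference, 2 for SUM159PT shNRP1#5 against shNRP1#3 and 4 for SUM159PT shNT against siNT. Without a filter on low counts more members passed. In HS578T these were 2 for siNRP1#3, 1 for shNRP1#5, 9 for siNRP1#5 against siNRP1#3 and 3 for the siRNA-shRNA difference. In MDA-MB-231 they were 10 for siNRP1#3, 9 for shNRP1#3, 22 for shNRP1#5, 14 for siNRP1#5 against siNRP1#3, 13 for shNRP1#5 against shNRP1#3 and 8 for shNT against siNT. In SUM159PT they were 2 for siNRP1#3, 10 for siNRP1#5, 2 for shNRP1#5, 10 for siNRP1#5 against siNRP1#3, 4 for shNRP1#5 against shNRP1#3 and 1 for the siRNA-shRNA difference. The F tests over the 3 lines gave 5 for siNRP1#3, 12 for siNRP1#5 and 10 for shNRP1#5. The cause of these changes was not tested. For none of the alternatives, here or above, is the share of all genes called given. Their counts of members therefore have no background, and a higher count cannot be read as a stronger effect on the members. Without the HS578T siNRP1#5 samples in the fit, HS578T siNRP1#3 had 0 members called. Subtracting the MDA-MB-231 counts, chosen after seeing the data, gave 0 for the HS578T siRNA-shRNA difference, 0 for the F test of siNRP1#3 and 2 for that of siNRP1#5. Leaving out 1 sample gave counts of 0 to 1 for HS578T siNRP1#3, 0 to 4 for siNRP1#5 against siNRP1#3, 3 to 9 for shNT against siNT and 0 to 2 for the siRNA-shRNA difference. In MDA-MB-231 it gave 10 to 17 for shNRP1#5, 1 to 4 for siNRP1#5, 0 to 5 for shNRP1#3, 3 to 8 for shNRP1#5 against shNRP1#3 and 0 to 3 for shNT against siNT. In SUM159PT it gave 0 to 12 for siNRP1#5, 0 to 1 for shNRP1#5, 3 to 11 for siNRP1#5 against siNRP1#3, 0 to 4 for shNT against siNT and 0 to 2 for the siRNA-shRNA difference. Leaving out the samples of 1 replicate number gave 0 to 1 for the F test of siNRP1#3, 3 to 5 for siNRP1#5 and 0 to 2 for shNRP1#5. The groups held 2 or 3 samples, which limits every test here, and EBP in HS578T rested on counts as low as 6.5.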
